A study of Homo sapiens with 4 samples.

Results

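The Frizzled receptors are the 10 genes FZD1 to FZD10, and they were examined here in Hs578T cells, an established line from a human breast carcinoma. The family was selected on a measured value, the lower FZD6 count after TLN1 silencing, so the FZD6 difference is given below as a description with no test. All 10 genes were found by Ensembl identifier among the 60721 genes of the deposited count table, and 8 of them passed the filter on low counts. Poly(A) RNA was sequenced 48 h after transfection. All cells were given GFP together with 1.6 µM of an RNA, which was a scrambled control in the SCR group and an siRNA to TLN1 in the siTLN1 group. Each group held 2 libraries, described as biological replicates without saying whether they came from separate cultures, so p-values measure the spread between these libraries only. TLN1 encodes talin-1, an adaptor between integrins and actin. The 2 libraries of each group are called a and b after a number that recurs in the count columns of both groups and that no label explains. The study rests on 1 cell line, and the sequence of the siRNA is not given in the sources used here.

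Frizzled proteins are multipass membrane receptors with a cysteine-rich extracellular domain that binds Wnt ligands. With LRP5 or LRP6 they signal through Dishevelled to stabilise β-catenin, and with ROR, RYK or the planar cell polarity proteins they act on the cytoskeleton and on cell orientation. FZD3 and FZD6 are best known for planar cell polarity, and FZD6 has also been described as restraining β-catenin signalling. FZD1, FZD2 and FZD7 form a closely related subgroup, as do FZD5 and FZD8, and FZD4 also binds the non-Wnt ligand Norrin.

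The 7-base word GACAACA was found in FZD6 and in no other receptor with counts. The transcripts searched covered FZD2 only in part. Across all genes of this data set the word had already been seen to go with lower fold changes in siTLN1, so its choice is not independent of these data. In GENCODE 29 transcripts, 1 per gene with the longest coding sequence, FZD6 held 2 copies, 1 in the coding sequence and 1 in the 3′ UTR, and all 3 of its coding transcripts held the word. FZD10, which had no counts, held 1 copy in its 3′ UTR. The transcripts of the other 8 receptors held none on the sense strand, the only strand searched. TLN1 itself held 1 copy, in its coding sequence. The sites of TLN1 and FZD10 are shown to let the flanks be compared, with a 6-base partial match in the coding sequence of FZD5. Apart from FZD6 and FZD10, such partial matches were found in FZD5, with 1, and in FZD3, with 2. Only the last 6 bases of the word were searched for them. Capitals mark the matched bases, all are sense strand, and coordinates are GRCh38.
TLN1, coding sequence, chr9:35706027-35706053, minus strand: tagaggacctGACAACAaccctcaacg
FZD10, 3′ UTR, chr12:130165352-130165378, plus strand: tatatataaaGACAACAaaagaaatct
FZD5, coding sequence, chr2:207768105-207768131, minus strand: acacccgctctACAACAaggtgcggac

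Outside the word the sites shared little. The identical run between the TLN1 site and the FZD10 site was 8 bases, and 13 of the 27 bases of the window were the same. For FZD6 the run was 9 bases at the 3′ UTR copy, with 12 of 27 bases the same, and 7 bases at the coding copy, with 11 of 27. The FZD2 transcript of that release is 2112 bases long, whereas the counting annotation gives FZD2 3779 exon bases, so part of FZD2 was not searched. None of 2545 mature human miRNAs in the RefSeq table (GRCh38.p14) has a 7-base seed complementary to the whole word. Shorter seed matches were not searched. Whether the siRNA or any small RNA acts on these copies was not tested.

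TLN1 was low in both libraries of the siTLN1 group. It stood at 868 and 874 CPM (counts scaled by TMM to the depth of the library) in the SCR libraries and at 51.9 and 44.8 CPM in the siTLN1 libraries, which left 5.55% of the SCR mean. Total counts per library ran from 31854322 to 46353297. The labels call the cells epithelial, but 5 of 10 epithelial markers stayed under 1 CPM in every library, EPCAM and CDH1 among them, while KRT18 ran from 104 to 131 CPM. All 7 mesenchymal markers were present, with VIM from 3811 to 3968 CPM. All 3 leukocyte markers and 2 of 3 endothelial markers were under 1 CPM, and PECAM1 ran from 2.86 to 4.47 CPM. Some marker sums moved with the groups. The summed epithelial markers stood at 238 and 288 CPM in SCR and at 206 and 221 CPM in siTLN1, with KRT14, a basal keratin, at 109 and 127 CPM against 66.2 and 68.1 CPM. The summed mesenchymal markers stood at 31104 and 28407 CPM in SCR and at 36949 and 31620 CPM in siTLN1. FN1 alone differed by more than this sum did, with 26298 and 23553 CPM against 32369 and 26960 CPM. CDH2, the N-cadherin gene of the same list, went the other way, from 569 and 535 CPM to 303 and 293 CPM, and ZEB1 and ZEB2 were also lower in both siTLN1 libraries. The endothelial sum stood at 4.72 and 4.13 against 3.21 and 3.51 CPM. The leukocyte sum stayed between 0.659 and 0.912 CPM. The part of these marker levels in the receptor results was not tested.

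Levels of different receptors are compared per length, as CPM per kilobase of exon. FZD6 was the most abundant Frizzled transcript of the control cells. It stood at 51.5 and 45.1 CPM per kilobase in the SCR libraries and at 21.7 and 18.6 in the siTLN1 libraries. FZD7 came next in control cells, at 34.3 and 33.4 CPM per kilobase in SCR, and stood at 48.0 and 41.8 in siTLN1. The siTLN1 libraries thus held the opposite order, with FZD7 above FZD6 in both. In SCR the level of FZD6 lay above that of 95.1% of the 16137 tested genes and the level of FZD7 above 92.7%.

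The other detected receptors formed lower tiers. FZD2, described as a receptor for WNT5A, had 12.1 and 13.3 CPM per kilobase in SCR and 12.2 and 11.4 in siTLN1. FZD8 had 9.48 and 10.9 in SCR and 10.6 and 10.3 in siTLN1, so FZD2 stood above FZD8 in each library. FZD4 had 5.48 and 4.51 CPM per kilobase in SCR and 6.31 and 5.83 in siTLN1. FZD1 had 4.60 and 4.81 in SCR and 5.42 and 5.09 in siTLN1. In SCR the libraries of FZD4 and FZD1 overlapped, and these neighbours did not differ beyond their spread. In siTLN1 FZD4 stood above FZD1 in both libraries. FZD5 was lower than all of these, with 1.03 and 0.791 in SCR and 1.28 and 1.01 in siTLN1.

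The last 3 receptors were at or near the limit of detection. FZD9 had 11 and 25 raw counts in SCR and 18 and 27 in siTLN1, or 0.148 to 0.306 CPM per kilobase over the 4 libraries. FZD3, the planar polarity partner of FZD6, had 0 and 2 raw counts in SCR and 3 and 4 in siTLN1. FZD10 had 0 counts in every library, and a count of 0 allows up to 3 counts, or 0.0638 to 0.0944 CPM depending on the library. FZD3 and FZD10 did not pass the filter on low counts. In edgeR without that filter FZD3 had a log2 fold change of 1.40 (SE 1.2) and an adjusted p of 0.728, so no change in it was detectable at this depth. These limits cover counting error only.

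**Figure D1:**
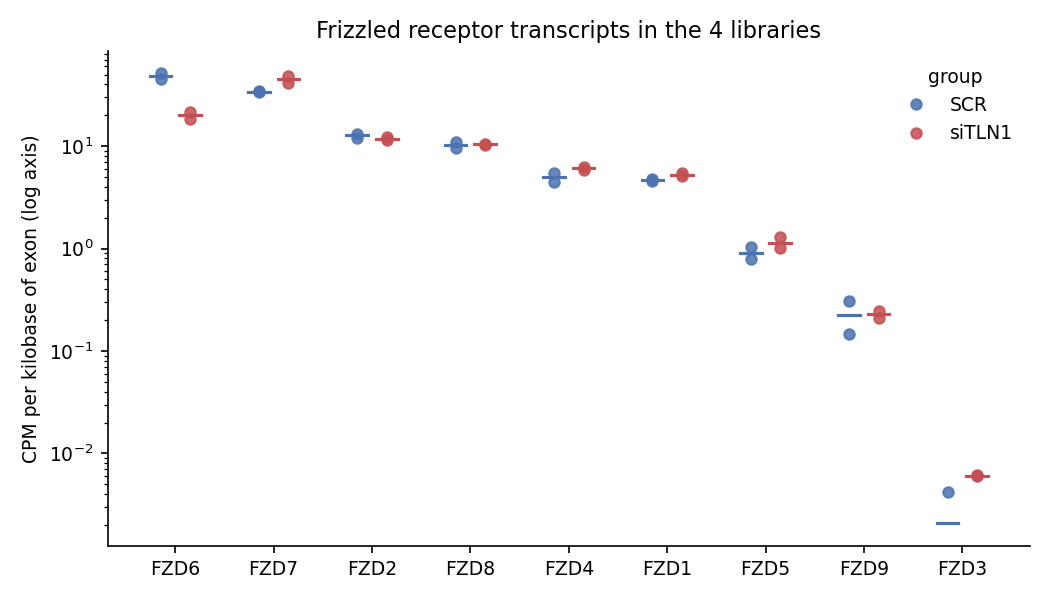
Each point is 1 library, in CPM per kilobase of exon on a log axis, with SCR in blue and siTLN1 in red, and short lines mark the mean of 2 libraries. FZD6 and FZD7 change places between the groups, whereas the other receptors keep their tiers; FZD10 (0 counts) and the SCR library with 0 FZD3 counts have no point, although that 0 enters the FZD3 mean.

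The make-up of the Frizzled pool differed accordingly. FZD6 made up 43.4% and 39.9% of the summed CPM per kilobase of the family in SCR and 20.5% and 19.7% in siTLN1. FZD7 made up 28.9% and 29.5% in SCR and 45.4% and 44.3% in siTLN1. The ratio of FZD6 to FZD7 was 1.43 ± 0.107 (SD, n = 2) in SCR and 0.448 ± 0.00601 (SD, n = 2) in siTLN1. The shares of FZD2 were 10.2% and 11.7% in SCR and 11.6% and 12.1% in siTLN1, and those of FZD8 were 7.99% and 9.63% against 10.0% and 10.9%. The shares of FZD4 and FZD1 lay between 3.88% and 6.18% over the 4 libraries. A lower FZD6 level raises every other share by construction, so shares were also taken among the 9 receptors without FZD6. There FZD7 held 51.1% and 49.1% in SCR and 57.1% and 55.2% in siTLN1. FZD2 held 18.1% and 19.5% in SCR and 14.6% and 15.1% in siTLN1. A higher FZD7 level lowers the other shares of these 9 by construction. FZD8, at 14.1% and 16.01% against 12.6% and 13.6%, and FZD1, at 6.85% and 7.07% against 6.45% and 6.73%, were also lower without overlap.

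The summed level of the family was 116 ± 3.94 CPM per kilobase (SD, n = 2) in SCR and 100.0 ± 8.10 (SD, n = 2) in siTLN1. The sum of the 9 receptors without FZD6 was 67.2 and 68.0 in SCR and 84.0 and 75.7 in siTLN1, so this sum was higher in both siTLN1 libraries. Most of that difference lay in FZD7, with a mean of 33.9 in SCR and 44.9 in siTLN1, beside 67.6 and 79.9 for the 9. The smallest two-sided p that exact permutation allows with 2 libraries in each group is 0.333, so shares and sums were not tested.

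**Figure D2:**
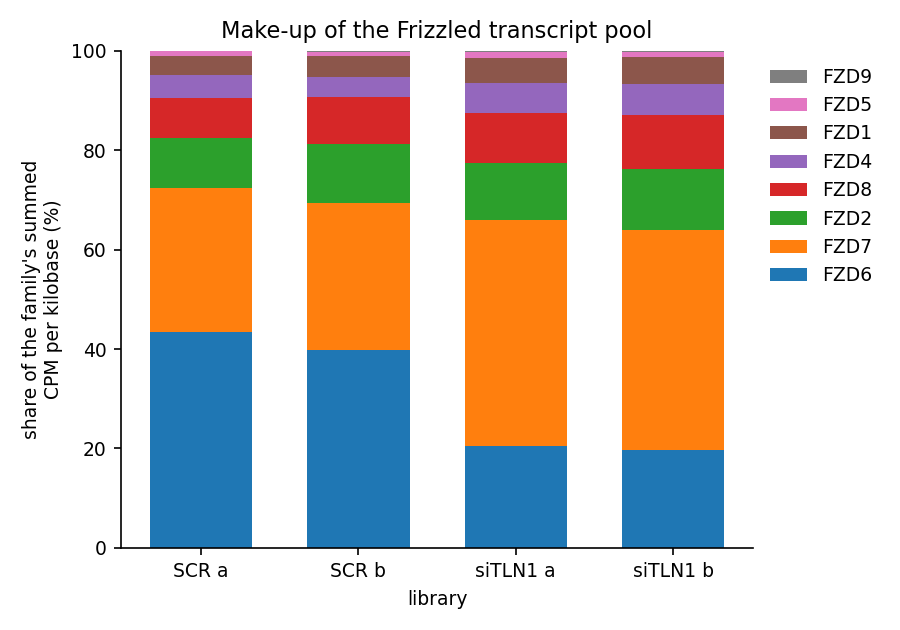
Stacked bars give the percent of the family's summed CPM per kilobase that each receptor held in each library. The FZD6 segment is 43.4% and 39.9% high in the SCR libraries and 20.5% and 19.7% high in the siTLN1 libraries, with FZD7 the largest segment there; FZD3 and FZD10 are too small to draw.

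The comparison of siTLN1 with SCR used edgeR's quasi-likelihood test across all genes. FZD6 (ENSG00000164930.12; chromosome 8, 103298433 to 103332866, plus strand) had 209 and 183 CPM in SCR and 88.2 and 75.5 CPM in siTLN1. Both siTLN1 libraries lay far below both SCR libraries. The fit put its log2 fold change at −1.26 (SE 0.11), and the siTLN1 mean was 41.7% of the SCR mean. Of the tested genes, 78 (FZD6 included) had a fold change as low or lower. In bulk RNA, fewer expressing cells and less RNA per cell cannot be told apart. BAALC-AS1, on the opposite strand, shares 3.39% of the exon bases of FZD6, and its level was 16.9 CPM in SCR and 16.8 CPM in siTLN1.

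FZD7 (ENSG00000155760.2; chromosome 2, 202034587 to 202038445, plus strand), a receptor best known for β-catenin signalling in stem and tumour cells, rose. It had 132 and 129 CPM in SCR and 185 and 161 CPM in siTLN1, with both siTLN1 libraries above both SCR libraries. The log2 fold change was 0.41 (SE 0.10), a 1.33-fold rise, and edgeR's Benjamini-Hochberg adjusted p was 0.0184. The call was lost without siTLN1 library a, at a log2 fold change of 0.30 and an adjusted p of 0.286 in the same edgeR test, and without SCR library b, at 0.39 and 0.0534. Its value was positive in all 4 fits that leave out 1 library. No other gene shares exon bases with FZD7.

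The other 6 tested receptors did not pass the threshold. FZD4 had 40.5 and 33.3 CPM in SCR and 46.6 and 43.0 CPM in siTLN1, a log2 fold change of 0.28 (95% interval 0.05 to 0.51) with an edgeR adjusted p of 0.153. Without SCR library a the value was 0.43 and the adjusted p from edgeR 0.0222, so 1 control library decided this call. PRSS23, a gene of the opposite strand at 710 CPM in SCR and 830 CPM in siTLN1, shares 18.9% of the exon bases of FZD4. The libraries were stranded but the counting set no strand option, so FZD4 counts are uncertain.

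FZD5 had 7.27 and 5.57 CPM in SCR and 9.04 and 7.09 CPM in siTLN1, and its groups overlapped. Its log2 fold change was 0.33 (95% interval −0.03 to 0.68). FZD1 had 31.7 and 33.1 CPM in SCR and 37.4 and 35.1 CPM in siTLN1, with no overlap, and a log2 fold change of 0.16 (95% interval −0.05 to 0.37). FZD2 was at −0.10 (95% interval −0.31 to 0.11). The intervals of FZD5 and FZD1 reach further up than down, that of FZD5 beyond the 0.41 of FZD7.

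FZD8 was at 0.04 (95% interval −0.18 to 0.25), and its sign turned without SCR library a, at −0.06. FZD9 was at −0.0015 (95% interval −0.85 to 0.85), the widest of the family, from 11 to 27 counts per library. Over these 6 genes the adjusted p from edgeR ran from 0.153 for FZD4 to 0.999 for FZD9. FZD8 shares 7.89% of its exon bases with ENSG00000287528 on the other strand, which had 0 to 5 counts per library, and 2.01% with MIR4683 on its own strand.

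Of the 7 tested receptors other than FZD6, 1 was called, and it was higher. Across all tested genes 6.07% were called, 2.30% as higher and 3.77% as lower. Positive fitted values were found for 5 of the 7, with a median log2 fold change of 0.16, beside a median of 0.0033 over all tested genes. The groups did not overlap for 4 of the 8 tested receptors, and 48.4% of all tested genes show the same.

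**Figure D3:**
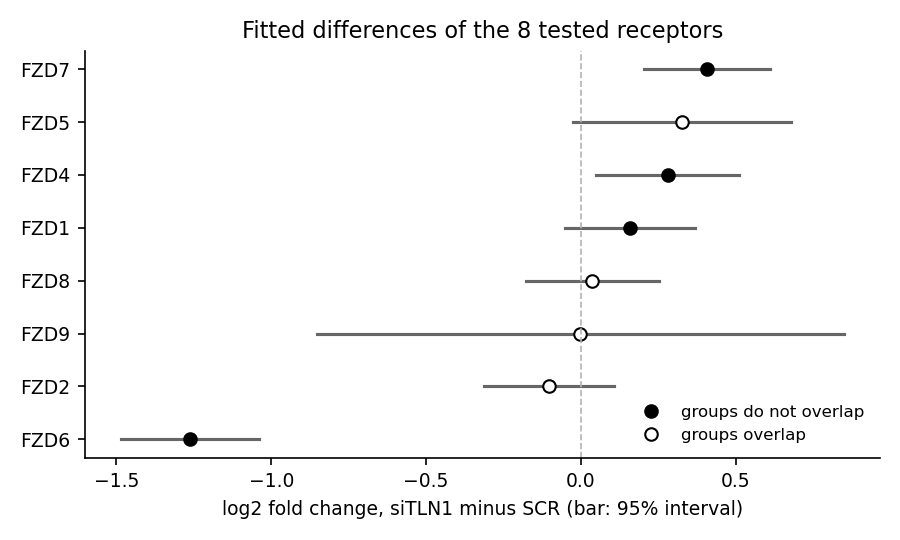
Points are fitted log2 fold changes of siTLN1 minus SCR with 95% intervals for the 8 tested receptors, filled where the libraries of the groups do not overlap. FZD6 sits alone at −1.26, FZD7 at 0.41 and FZD2 at −0.10, and FZD9 has the widest interval.

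The place of FZD6 among genes that hold the word was described over 9988 tested coding genes with an annotated 3′ UTR and a mean level of at least 5 CPM, TLN1 left out. A copy in the 3′ UTR was held by 757 genes (7.58%), whose median log2 fold change was −0.10, and 19.9% of them were called lower against 1.85% called higher. The 1468 genes with a copy in the coding sequence only had a median of −0.03, with 7.08% called lower. The 7763 genes with no copy in either region had a median of 0.01, with 3.28% called lower. FZD6 is among the 137 genes with copies in both regions, whose median was −0.17, with 25.5% called lower. Among 3′ UTRs from 0.5 to 2 times the 1350 bases of that of FZD6, 6.52% held the word, as did 17.5% of coding sequences in the same range around its 2121 bases. The classes above were not matched on the length of these regions, and no other word was compared. The part of length in the called shares was not tested. Because the word was picked on the same contrast and FZD6 is among the 757 genes, these shares are a description.

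Most genes with the lowest values held the word in the 3′ UTR. Of 510 genes called lower in this set, 151 (29.6%) had a 3′ UTR copy, and among the 31 of them with a log2 fold change of −1 or less 21 (67.7%) did. The word was also present in genes that rose: among genes of Wnt reception, LRP4 (log2 fold change 0.73) held 4 copies and LGR5 (0.92) held 1, all in the coding sequence. APCDD1, which fell (−0.56), held 1 coding copy. The other called genes of Wnt reception held none: WNT5B and SFRP2, which fell, and WNT7B, WLS and LEF1, which rose. The word was picked on the same contrast, so these shares are a description.

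**Figure D4:**
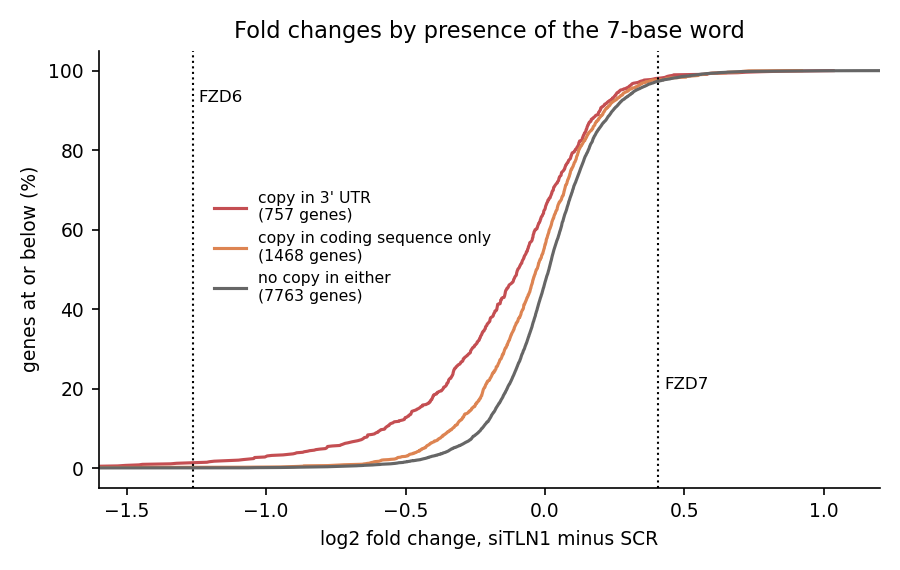
Curves give the percent of genes at or below each log2 fold change (siTLN1 minus SCR) for genes with a copy of the 7-base word in the 3′ UTR, in the coding sequence only, or in neither. The curve of the 757 genes with a 3′ UTR copy lies to the left of that of the 7763 genes with none, and dotted lines mark FZD6 at −1.26 and FZD7 at 0.41. Choice of the word rested on this same contrast.

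The genes most like FZD6 were sought over the 4 libraries by the root mean square difference of mean-centred log2 CPM, among 10479 genes at 5 CPM or more. The 5 nearest were TWSG1 (0.078), an extracellular BMP regulator, RBM24 (0.10), an RNA-binding protein, SEC23A (0.11), a COPII coat subunit, CNOT11 (0.11), a subunit of the CCR4-NOT deadenylase complex, and EPAS1 (0.12), which encodes HIF-2α. TWSG1, the closest, had 137 and 116 CPM in SCR and 59.6 and 55.2 CPM in siTLN1. The log2 fold changes of the 5 genes ran from −1.50 for EPAS1 to −1.06 for CNOT11. All 5 held the word in the 3′ UTR of the transcript searched, CNOT11 with 2 copies and the others with 1. Not every coding transcript held it, with 1 of 2 for TWSG1, CNOT11 and EPAS1, 2 of 5 for RBM24 and 3 of 11 for SEC23A. The likeness rests on 4 libraries, and the difference between groups that chose FZD6 is part of it. The word was picked on the same contrast, so its presence in these 5 genes is a description. Of the 31 genes called lower with a log2 fold change of −1 or less, 21 (67.7%) held the word in the 3′ UTR.

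The other genes of Wnt reception were taken from 7 lists of 93 genes, of which 68 were tested. Of these, 5 rose, 3 fell and 60 did not pass edgeR's adjusted threshold, so 11.8% were called beside 6.07% of all tested genes. The lists were chosen with earlier results of these data known, so these shares are a description. Among the ligands, 10 of 19 were tested, 1 rose and 1 fell, with a median log2 fold change of 0.28. WNT5A, which acts through several Frizzleds and ROR receptors, was the most abundant ligand, with 462 and 444 CPM in SCR and 615 and 535 CPM in siTLN1. Its log2 fold change of 0.34 missed the threshold, with an edgeR adjusted p of 0.0538. It passed without siTLN1 library b, at 0.44 and an adjusted p from edgeR of 0.0312, with total counts only (0.0339) and in DESeq2 (0.0223). WNT5B, its close relative, fell from 72.6 and 76.3 CPM to 60.8 and 50.9 CPM, a log2 fold change of −0.42 with an edgeR adjusted p of 0.0240, and the call was lost without siTLN1 library b (−0.29, adjusted p 0.256) and when genes of few counts were kept in the fit (−0.41, adjusted p 0.0563). WNT7B rose from 134 and 161 CPM to 191 and 206 CPM, a log2 fold change of 0.43 with an edgeR adjusted p of 0.0197. When each library was left out the WNT7B call held only without SCR library b, and the adjusted p was 0.151 without SCR library a, 0.0600 without siTLN1 library a and 0.0829 without siTLN1 library b.

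Both genes of ligand secretion had higher values in siTLN1. WLS, the carrier that brings Wnt proteins to the cell surface, rose from 94.3 and 90.4 CPM to 118 and 120 CPM, a log2 fold change of 0.37 with an edgeR adjusted p of 0.0242. When each library was left out the WLS call held only without SCR library a, with an adjusted p of 0.110 without SCR library b, 0.156 without siTLN1 library a and 0.103 without siTLN1 library b. PORCN, the acyltransferase that adds a lipid to Wnt ligands, was at 0.20 and did not pass.

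Of the 10 co-receptors and other Wnt receptors, all tested, 1 rose, with a median log2 fold change of 0.14. No gene of this list fell by edgeR, DESeq2 or limma-voom, and DESeq2 called 2 higher. At an unadjusted p under 0.05 in edgeR 1 was lower and 2 were higher, beside 3196 of all 16137 tested genes in either direction. LRP4, a receptor that binds Wnt antagonists, had 6.80 and 7.49 CPM in SCR and 12.8 and 10.98 CPM in siTLN1. Its log2 fold change was 0.73 with an edgeR adjusted p of 0.00368, and the call was lost without siTLN1 library a (0.62, adjusted p 0.0688). PTK7, a Wnt co-receptor of the polarity pathway and the gene of this list with the highest CPM, had a log2 fold change of 0.31 and an edgeR adjusted p of 0.0603, and it passed with total counts only (0.0494) and in DESeq2 (0.0344).

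Frizzled turnover is set by the ubiquitin ligases RNF43 and ZNRF3, which R-spondins restrain through LGR receptors. Of 11 genes of this group 5 were tested and 1 rose, with a median of 0.25. LGR5, an R-spondin receptor, rose from 10.7 and 9.85 CPM to 19.9 and 19.0 CPM. Its log2 fold change was 0.92 (SE 0.12), with an edgeR adjusted p of 0.000127, and it ran from 0.86 to 0.98 when each library was left out. LGR4, more abundant, was at 0.25 and did not pass. Without SCR library a it was at 0.42 with an edgeR adjusted p of 0.0263.

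The secreted antagonists and their receptors held the other 2 list genes called lower, beside 3.77% called lower of all tested genes. Of 19 genes 11 were tested and 2 fell, with a median of −0.10. SFRP2, which carries a Frizzled-like cysteine-rich domain and binds Wnt proteins, fell from 46.4 and 44.1 CPM to 35.3 and 26.9 CPM. Its log2 fold change was −0.54 with an edgeR adjusted p of 0.0164, and the call was lost without siTLN1 library b (−0.35, adjusted p 0.156). APCDD1, a membrane inhibitor of Wnt signalling, fell from 32.9 and 36.8 CPM to 23.8 and 23.4 CPM, a log2 fold change of −0.56 with an edgeR adjusted p of 0.00350. DKK3, a Dickkopf family member, had the highest CPM of this list but not the highest level per kilobase. It was at 0.28 and did not pass.

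Calls among genes downstream of the receptors are given beside the 6.07% called of all tested genes. Of the 16 Dishevelled, destruction complex and TCF genes, all tested, 1 rose, with a median of 0.04. LEF1, a transcription factor that works with β-catenin, rose from 25.1 and 23.9 CPM to 31.4 and 34.1 CPM, a log2 fold change of 0.42 with an edgeR adjusted p of 0.0225. When each library was left out the LEF1 call held only without SCR library a, with an adjusted p of 0.0689 without SCR library b, 0.0883 without siTLN1 library a and 0.156 without siTLN1 library b. CTNNB1, which encodes β-catenin, was at 0.18 and did not pass. Of the 16 planar cell polarity genes 14 were tested, with a median of 0.04. None was called by edgeR, DESeq2 or limma-voom, and 5 had an unadjusted p under 0.05 in edgeR, 4 of them higher. Across all 16137 tested genes 3196 had such an unadjusted p. SCRIB, a polarity scaffold with the highest CPM of this list, was at −0.10.

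**Figure D5:**
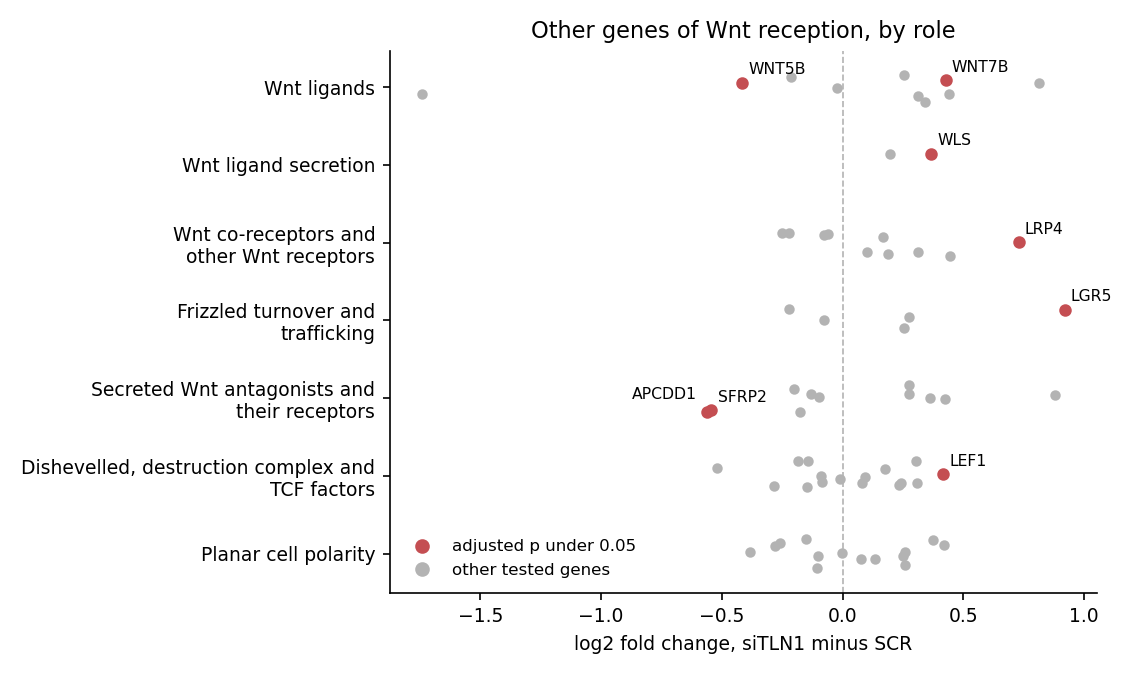
Each point is 1 tested gene of 7 lists, placed by its log2 fold change (siTLN1 minus SCR), with the vertical spread within a list for legibility only. Red points passed an adjusted p of 0.05 in edgeR: LGR5 (0.92), LRP4 (0.73), WNT7B (0.43), LEF1 (0.42) and WLS (0.37) were higher, and APCDD1 (−0.56), SFRP2 (−0.54) and WNT5B (−0.42) were lower.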

How the data were processed

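The deposited table of raw counts per gene was made by the authors with featureCounts 2.0.0 on GENCODE 33 (GRCh38) in paired-read mode, with no option for strand or for reads mapping to several places, per the file headers. Alignment with STAR 2.7.9a and use of edgeR 3.34.1 are named in the submitters' processing notes. A second deposited table holds log2 CPM values of the authors for 16137 genes, whose filter and scaling are not given in the sources used here. The authors' count file also gives the exon length of each gene in bases, an other unit.

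Genes passing filterByExpr (minimum count 10, minimum total 15) were scaled by TMM and compared across all 16137 genes with edgeR 4.0.16 (R 4.3.3; glmQLFit, robust, not legacy; glmQLFTest), with Benjamini-Hochberg adjustment and a threshold of 0.05. No label explains the number in the count columns. By the deposited log2 CPM of the receptors, libraries a and b of each group are replicates 1 and 2. No label says that replicates of the same number share a preparation, so no test on counts is paired. Symbols, for 60402 of 60721 genes, came from a table of gene names. Alternatives were RLE scaling, total counts, other filters, DESeq2 1.42.0, limma 3.58.1 (voom, and trend on the deposited values with and without a replicate block) and each library left out. The procedure was run on counts simulated with no replicate effect shared between the groups, so that run does not cover such an effect. The text names all members, TLN1, each list gene that passed, up to 3 abundant others per list and the 5 genes nearest FZD6. The members, lists, word and tests were chosen with earlier results of these data known.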

Additional observations from a re-analysis of the deposited data

How the results depend on the processing

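FZD6 kept its direction in every alternative run, with log2 fold changes from −1.26 to −1.25 with all libraries and from −1.38 to −1.15 when each library was left out. FZD7 ran from 0.40 to 0.42 with all libraries, where 9 of 9 alternatives kept the call, and from 0.304 to 0.506 when each was left out, where 2 of 4 did. A fit with 1 library left in a group assumes that it varies like the other group. Those fits gave ranges of 0.114 to 0.208 for FZD1, −0.166 to −0.0359 for FZD2, 0.147 to 0.428 for FZD4 (called without SCR library a), 0.143 to 0.528 for FZD5, −0.0572 to 0.140 for FZD8 and −0.410 to 0.634 for FZD9. The sign of FZD9 turned at 0.000469 (RLE), 2.52e-06 (total counts), 0.0117 (no filter), 0.00638 (DESeq2), 0.0767 (voom), 0.0797 (trend, with and without the block), 0.634 and 0.0900 (leaving out SCR library b or siTLN1 library a), and that of FZD8 at −0.0572 (without SCR library a). SCRIB turned at 0.0270 without SCR library b and ran from −0.217 to 0.0270 over the libraries left out. The cause of these turns was not tested.

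The 980 genes called became 347 to 1116 when each library was left out, with 347 without siTLN1 library a. No label says that the replicate numbers mark a shared preparation. The differences between replicates correlated between the groups at 0.190 across all genes and at 0.537 across genes at 5 CPM or more. With the authors' log2 CPM values in limma-trend, the replicate block gave 3650 called genes against 951 without it, and FZD4 (0.286) and FZD5 (0.328) passed, as did WNT5A, PTK7, DKK3, LGR4, PORCN and CTNNB1. DESeq2 gave no adjusted p for 3755 genes. Of 273 alternative values for the 21 named genes that are no member, 247 kept both their direction and their side of the threshold, 13 lost the call, 12 gained it and 1 turned.

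Shares of raw counts, without length, put FZD1 at 6.60% in SCR and 8.41% in siTLN1, FZD2 at 9.77% and 10.4%, FZD4 at 7.48% and 10.4%, and FZD7 at 26.6% and 40.1%. In siTLN1 they put FZD5 at 1.86%, FZD6 at 18.9% and FZD8 at 9.78%. Length scaling alone separates these from the shares per length.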
